A study of Mus musculus with 6 samples.

Results

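The genes described here are 10 pericentral Wnt target genes of the mouse liver, namely Oat, Glul, Cyp2e1, Cyp1a2, Axin2, Lgr5, Rgn, Slc1a2, Tbx3 and Rhbg, out of 34745 genes counted in hepatocyte RNA. They were chosen by symbol, as genes known to mark hepatocytes beside the central vein, with their values in the FOXA2H-KO to FOXA2f/f comparison already known, so that this comparison is given for them as a description, and their counts of calls in the fit over all genes are no evidence about them. Primary hepatocytes came from male mice aged 12 weeks that all carried floxed Foxa2 alleles (FOXA2f/f) and all had liver fibrosis from CCl4, given 2 times per week over 4 weeks in doses of 0.25 ml/kg, with the livers taken a few days after the last dose. The 3 control libraries (FOXA2f/f) are from mice given AAV8-TBG-Control, and the 3 knockout libraries (FOXA2H-KO) are from mice given AAV8-TBG-Cre, in each case 2 weeks before CCl4. The TBG promoter limits Cre to hepatocytes, so other cells in the preparation keep Foxa2. Hepatocytes were released by collagenase perfusion, and all mice carried CCl4 injury, so no uninjured liver stands beside these values. The labels number the libraries 1, 2 and 4 in each group and do not say that each is a separate mouse.

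Hepatocytes around the central vein differ from those at the portal tract because endothelial cells of the central vein secrete Wnt2 and Wnt9b, and R-spondin 3 strengthens the signal through the receptors Lgr4 and Lgr5. Stabilised beta-catenin then enters the nucleus with TCF/LEF factors and turns on the pericentral programme, which includes glutamine synthesis, ornithine breakdown and many cytochromes P450. The cytochrome CYP2E1 converts CCl4 to a toxic radical, which is why CCl4 injures this zone first.

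Total counts lay between 20983455 and 28327765 per library, with the lowest total of each group in FOXA2f/f replicate 2 and FOXA2H-KO replicate 4. Foxa2, the deleted gene, had 442, 246 and 516 counts in the FOXA2f/f libraries and 28, 19 and 35 in the FOXA2H-KO libraries (replicates 1, 2 and 4, the order used throughout). Its level of 1.14 ± 0.438 CPM (counts scaled to the library total by edgeR's TMM method; mean ± SD, n = 3) in FOXA2H-KO was 6.98% of the 16.3 ± 2.75 CPM (n = 3) in FOXA2f/f, and it was called (log2 fold change −3.85, SE 0.31; adjusted p = 0.0313, edgeR's quasi-likelihood test). Leaving out a library kept its log2 fold change between −4.17 and −3.63, but its adjusted p was above 0.05 in 5 of 6 such fits and reached 0.499 without FOXA2H-KO replicate 1. Hepatocyte markers were abundant in every library, Alb alone taking 9.38% to 11.0% of all counts, and every endothelial, macrophage, stellate and cholangiocyte marker looked for was detected too. In such bulk RNA, fewer cells of a type and less RNA per cell cannot be told apart.

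The RefSeq start regions (build GRCm38.p6) of 3 of these genes are printed because Oat was the gene whose groups did not overlap, and Cyp2e1 and Cyp1a2, both cytochromes of the same zone, had fold changes of opposite sign. Each run is the 250 bases upstream of the RefSeq start, 5′ to 3′ on the gene's own strand: chr7:132576399-132576648 on the minus strand for Oat, chr7:140763569-140763818 on the plus strand for Cyp2e1 and chr9:57683656-57683905 on the minus strand for Cyp1a2. Capitals mark CTTTG on either strand (read as CAAAG on the other), which is the core of the TCF/LEF motif, and TATAAA on the printed strand.
Oat: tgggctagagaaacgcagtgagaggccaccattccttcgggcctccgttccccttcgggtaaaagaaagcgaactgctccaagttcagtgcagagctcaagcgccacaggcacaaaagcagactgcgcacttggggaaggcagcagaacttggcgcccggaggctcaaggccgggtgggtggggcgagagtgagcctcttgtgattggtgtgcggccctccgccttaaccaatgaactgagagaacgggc
Cyp2e1: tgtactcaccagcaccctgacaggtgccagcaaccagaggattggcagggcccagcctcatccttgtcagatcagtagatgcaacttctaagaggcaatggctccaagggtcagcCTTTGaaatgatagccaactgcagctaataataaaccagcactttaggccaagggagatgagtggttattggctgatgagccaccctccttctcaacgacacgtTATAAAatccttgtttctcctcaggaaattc
Cyp1a2: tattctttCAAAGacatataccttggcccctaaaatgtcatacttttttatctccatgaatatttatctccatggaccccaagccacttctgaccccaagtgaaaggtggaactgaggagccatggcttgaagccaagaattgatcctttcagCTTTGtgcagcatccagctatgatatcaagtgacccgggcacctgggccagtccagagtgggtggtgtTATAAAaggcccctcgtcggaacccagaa

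RefSeq start regions of 300 bases (250 before and 50 after the start) were found for 6 of the 10 genes: Oat, Glul, Cyp2e1, Cyp1a2, Axin2 and Slc1a2. CTTTG was in 3 of these 6 (Cyp2e1, Cyp1a2 and Slc1a2), against 53.9% of all 32851 start regions searched on both strands. The longer TCF/LEF motif CTTTGAT, which contains CTTTG, was in 1 of 6, Slc1a2, against 3.73% of all regions. The 250 bases before the Slc1a2 start used here are chr2:102706188-102706437 on the plus strand. They lie inside the gene as annotated in GENCODE M21 (102658659 to 102790784), so the Slc1a2 matches are at an internal start. The forkhead motifs TGTTTAC and TATTTAC, of the kind that FOXA proteins bind, were in 0 of 6, against 3.65% and 3.04%. TATAAA was in Cyp2e1, 31 bases before the start (position -31), and in Cyp1a2, at position -29, and was in 13.6% of all regions. Base composition split the same genes: GC content was 61.7% for Oat, 64.3% for Glul and 70.0% for Axin2, and 49.7% for Cyp2e1, 49.7% for Cyp1a2 and 45.7% for Slc1a2, around a median of 52.7% over all regions. A match of letters is a description, and these short windows leave out the distant enhancers at which both factors are known to act.

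Set side by side per length, as FPKM (fragments scaled to gene length and library total), the genes ranged from abundant enzymes to traces. In FOXA2f/f hepatocytes Cyp2e1 was the highest at a mean of 464 FPKM, followed by Rgn at 445 FPKM and Cyp1a2 at 269 FPKM. Glul stood at 30.9 FPKM and Oat at 11.7 FPKM. Axin2 (0.789 FPKM), Tbx3 (0.486 FPKM), Lgr5 (0.377 FPKM), Slc1a2 (0.0535 FPKM) and Rhbg (0.0366 FPKM) followed. Neighbours in this order overlapped between libraries from Cyp2e1 to Cyp1a2, from Glul to Oat and from Axin2 to Lgr5, so that the clear steps were those between the abundant enzymes, the pair Glul and Oat, the Wnt feedback genes, and the lowest pair. In FOXA2H-KO the order was the same except that Oat (45.6 FPKM) stood above Glul (40.0 FPKM) and Rhbg was at 0, with Oat and Glul overlapping between libraries.

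**Figure D1:**
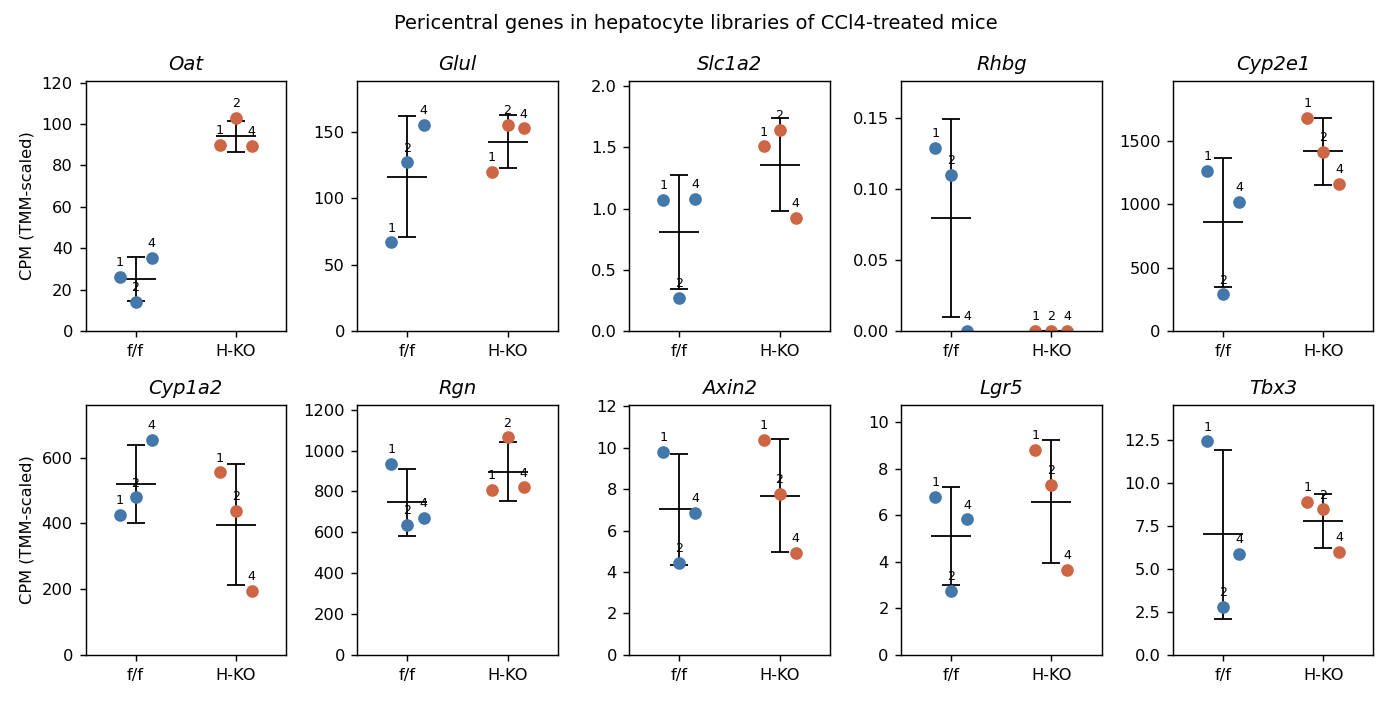
CPM of each of the 10 genes in the 3 FOXA2f/f (f/f, blue) and 3 FOXA2H-KO (H-KO, orange) libraries, each panel on its own linear axis from 0; digits give the replicate, and bars the mean ± SD. Oat is the panel in which all 3 FOXA2H-KO points lie above all 3 FOXA2f/f points, whereas the other tested genes overlap.

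Oat encodes ornithine aminotransferase, the mitochondrial enzyme that passes the amino group of ornithine to 2-oxoglutarate and so links ornithine to glutamate and proline. The gene (ENSMUSG00000030934) lies on chromosome 7 from 132557478 to 132576398 on the minus strand (GRCm38), and none of its transcript sequence was shared with another gene over windows of 50 bases. It had 608, 259 and 1115 counts in FOXA2f/f and 2445, 2565 and 1938 counts in FOXA2H-KO, or 26.1, 14.2 and 35.4 CPM against 89.9, 102.9 and 89.6 CPM. Every FOXA2H-KO library was above every FOXA2f/f library, and the lowest of the former was 89.6 CPM where the highest of the latter was 35.4 CPM. The group means were 25.3 ± 10.6 CPM (SD, n = 3) and 94.1 ± 7.55 CPM (SD, n = 3), a ratio of 3.73. Its fitted log2 fold change was 1.89 (SE 0.30), which ranked 29th from the top among 14417 genes. The FOXA2H-KO libraries were also close to each other, with the highest 1.15 times the lowest, against 2.50 times in FOXA2f/f. Per length the same counts gave 11.0, 5.73 and 18.3 FPKM in FOXA2f/f and 46.9, 48.6 and 41.3 FPKM in FOXA2H-KO.

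Glul, glutamine synthetase, fixes the last ammonia before blood leaves the lobule and is confined to the innermost hepatocytes. It is on chromosome 1 from 153899944 to 153909723, plus strand. Its level was 66.8, 127.2 and 155.4 CPM in FOXA2f/f and 119.8, 155.7 and 152.8 CPM in FOXA2H-KO. The groups overlapped, FOXA2f/f replicate 1 being the low library, and the log2 fold change was 0.29 (SE 0.29). Of its transcript windows, 12.6% also occur in other annotated sequences, among them the pseudogene Glns-ps1, so part of its fragments may have been assigned elsewhere.

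Slc1a2, a glutamate transporter of the pericentral membrane, was sparse, with 25, 5 and 34 counts in FOXA2f/f and 41, 41 and 20 counts in FOXA2H-KO. Its log2 fold change was 0.72 (SE 0.52), the groups overlapped, and the FOXA2f/f library with 5 counts was the lowest. Rhbg, an ammonium transporter, had 3, 2 and 0 counts in FOXA2f/f and 0, 0 and 0 in FOXA2H-KO, all at or under the 3 counts that a count of 0 allows in one library. That limit corresponded to 0.110, 0.120 and 0.139 CPM in the FOXA2H-KO libraries, counting error only, so Rhbg was not detectable at this depth and no fold is given. In the GENCODE M21 annotation, 61.4% of the exonic bases of Rhbg also belong to Gm38392, a read-through gene on the same strand, which itself had at most 1 count per library. Whether fragments in the shared exons went uncounted was not tested.

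Among the drug-metabolising enzymes, Cyp2e1 was at 1267, 290.9 and 1023 CPM in FOXA2f/f and 1685, 1415 and 1159 CPM in FOXA2H-KO. FOXA2f/f replicate 2 stood apart at the bottom, FOXA2f/f replicate 4 was below all FOXA2H-KO libraries, FOXA2f/f replicate 1 lay inside their range, and the highest FOXA2f/f library was 4.36 times the lowest. The log2 fold change of Cyp2e1 was 0.72 (SE 0.48), and its mean went from 860.3 ± 508 CPM to 1419 ± 263 CPM (SD, n = 3 each). By real-time PCR the study reports the other direction, naming Cyp2e1 among genes severely lower in FOXA2H-KO hepatocytes after CCl4. The cause of this difference was not tested. Cyp1a2, which oxidises caffeine and many aromatic amines, was the single gene with a negative value. It had 425, 478.5 and 653 CPM in FOXA2f/f and 554.9, 438.6 and 195.1 CPM in FOXA2H-KO, a log2 fold change of −0.39 (SE 0.37). FOXA2H-KO replicate 4 was the lowest of the 6 libraries and the other 2 lay within the FOXA2f/f range. Cyp1a2 shares 4.79% of its transcript windows with Cyp1a1, which had between 16 and 164 counts, far fewer than the 4218 to 20545 of Cyp1a2.

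Rgn, regucalcin, a calcium-binding lactonase of the vitamin C pathway, was the steadiest of the abundant genes. Its level was 933.6, 634.3 and 670.8 CPM in FOXA2f/f and 808.8, 1064 and 819.3 CPM in FOXA2H-KO, with overlapping groups and a log2 fold change of 0.27 (SE 0.22). The fitted biological coefficient of variation (the spread between replicates beyond counting noise) was 21.2% for Rgn, beside a median of 21.3% over all genes tested. For Oat it was 26.4%, whereas Cyp2e1 (40.8%), Slc1a2 (40.5%) and Tbx3 (41.6%) were among the more variable genes, near the 90th percentile (90.1, 89.7 and 90.9).

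The genes that report Wnt signalling most directly were low. Axin2, a scaffold that closes a negative feedback loop on beta-catenin, had 9.79, 4.44 and 6.83 CPM in FOXA2f/f and 10.4, 7.78 and 4.90 CPM in FOXA2H-KO. Lgr5, the R-spondin receptor, had 6.79, 2.74 and 5.82 CPM against 8.79, 7.30 and 3.65 CPM. Tbx3, a T-box transcription factor of pericentral hepatocytes, had 12.4, 2.80 and 5.85 CPM against 8.90, 8.46 and 5.97 CPM. In all 3 genes the groups overlapped, FOXA2f/f replicate 2 was the lowest of the 6 libraries and FOXA2H-KO replicate 4 the lowest of its group. Their log2 fold changes were 0.13 (SE 0.36), 0.36 (SE 0.42) and 0.14 (SE 0.48), each smaller than its error. Antisense genes overlap Axin2 (Gm11670) and Tbx3 (Tbx3os1), over 3.80% and 1.74% of their exonic bases, and use of strand in counting is not given in the sources used here.

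Of the 10 genes, 9 had enough counts to be tested in the fit over all genes and 0 were called at an adjusted p under 0.05 with a fold change of at least 2, where 1 of all 14417 genes (0.00694%) was called by edgeR. At an unadjusted p under 0.05 the edgeR fit held 1 of the 9, Oat, and 745 of all genes (5.17%). DESeq2 called 1 of the 9, again Oat, where it called 0.489% of 15326 genes, and limma on log2(FPKM + 1) called 0. One gene, Oat, had all FOXA2H-KO libraries above all FOXA2f/f libraries (4.54% of all genes), 0 had them all below (5.96%), and 8 overlapped. The log2 fold change was above 0 in 8 of 9 genes (47.8% of all genes), with a median of 0.29, or 0.28 without Oat, beside −0.01 over all genes tested. Since the genes were chosen with this contrast known, nothing is read from these counts.

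**Figure D2:**
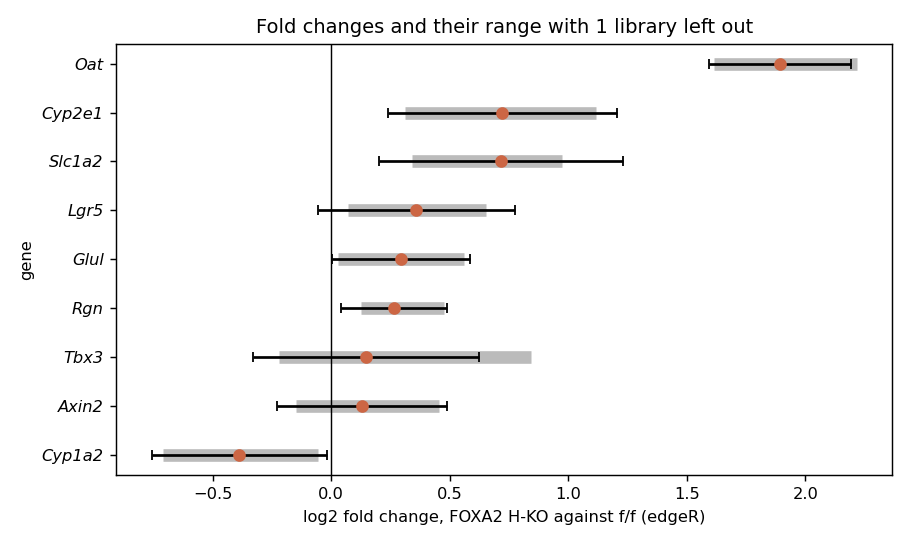
Log2 fold change of each of the 9 tested genes, FOXA2H-KO against FOXA2f/f (point, with bars of 1 SE), and the range of its value when each library is left out in turn (grey). Oat stays between 1.61 and 2.22, and the ranges of Axin2 and Tbx3 cross 0.

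Leaving out each library in turn moved the genes unequally. Oat went from 1.61 without FOXA2f/f replicate 2 to 2.22 without FOXA2f/f replicate 4. For Cyp2e1 the value was 0.31 without FOXA2f/f replicate 2 and 1.12 without FOXA2f/f replicate 1. Cyp1a2 was at −0.05 without FOXA2H-KO replicate 4 and Glul at 0.03 without FOXA2f/f replicate 1, so each of these differences rested largely on 1 library. Axin2 turned negative without FOXA2H-KO replicate 1 (−0.15) and without FOXA2f/f replicate 2, and Tbx3 without FOXA2f/f replicate 2 (−0.22). Lgr5 lay between 0.07 and 0.65, Rgn between 0.13 and 0.47, and Slc1a2 between 0.34 and 0.97.

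The libraries were ordered alike in most of these genes. FOXA2f/f replicate 2 was the lowest of all 6 libraries in 7 of the 9 genes, the exceptions being Glul and Cyp1a2, and FOXA2H-KO replicate 4 was the lowest of its group in 7. Averaged over the 8 genes without Oat, the level relative to the mean of each gene (log2 of CPM + 0.5) was 0.16, −0.69 and 0.07 in FOXA2f/f and 0.38, 0.32 and −0.23 in FOXA2H-KO. A separate list of 21 other pericentral genes gave 0.06, −0.56 and 0.27 in FOXA2f/f and 0.25, 0.23 and −0.25 in FOXA2H-KO, so the same 2 libraries were again the lowest of their groups. Over 20 periportal genes FOXA2f/f replicate 2 was instead the highest library, at 0.32, and FOXA2H-KO replicate 1 the lowest, at −0.28. The groups overlapped in all 3 sets. Beside this, FOXA2f/f replicate 2 also had the lowest summed endothelial (298.5 CPM, others 505.5 to 1009), macrophage (477.6 CPM, others 1047 to 2194) and stellate and fibroblast markers (858.7 CPM, others 981.8 to 2354), and their part in the low pericentral values was not tested. Without this library the median over the 9 genes was 0.16 and over the other pericentral genes −0.02.

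**Figure D3:**
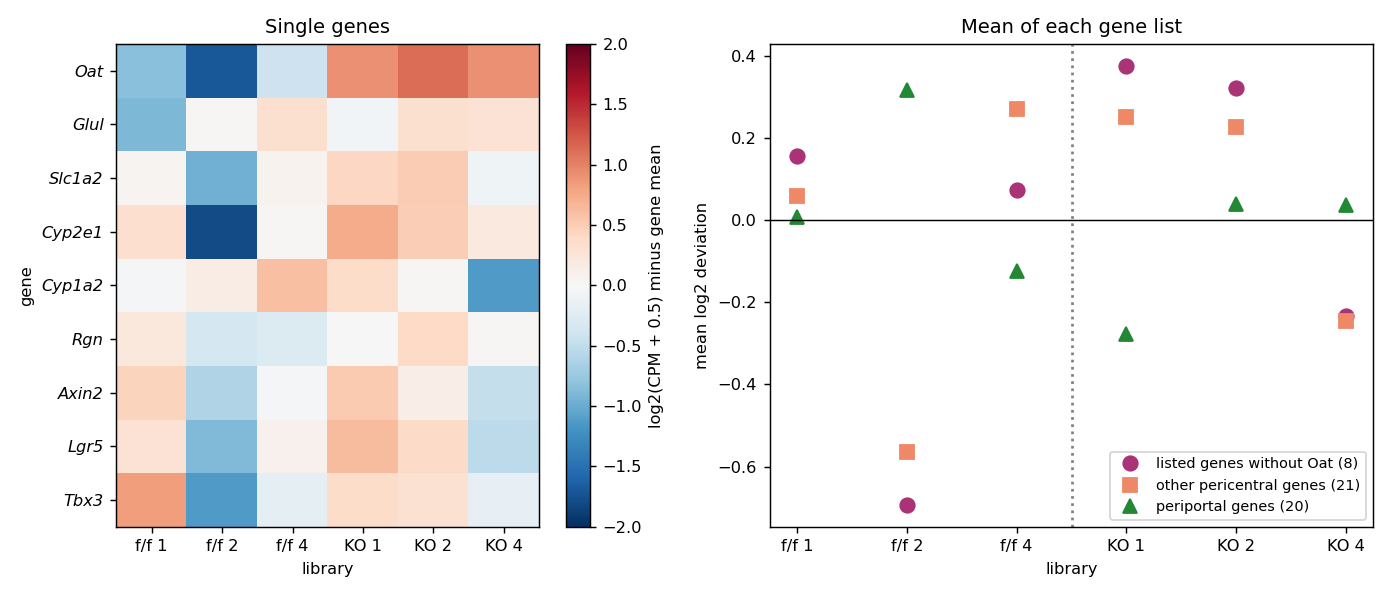
Left, log2(CPM + 0.5) of the 9 tested genes in each library relative to the gene's mean over the 6 libraries (colour scale from −2 to 2); right, the mean of such values for the 8 genes without Oat, for 21 other pericentral genes and for 20 periportal genes. FOXA2f/f replicate 2 is the lowest library for both pericentral sets (−0.69 and −0.56) and the highest for the periportal set (0.32).

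Because the pericentral level varied between libraries, Oat was also expressed relative to its neighbours in the same library, which removes the scaling between libraries. Oat FPKM was 67.2%, 19.2% and 39.2% of Glul FPKM in FOXA2f/f and 129.1%, 113.6% and 100.8% in FOXA2H-KO. Relative to Rgn it was 2.09%, 1.67% and 3.94% against 8.29%, 7.21% and 8.16%. Relative to Cyp2e1 it was 1.75%, 4.14% and 2.94% against 4.53%, 6.16% and 6.56%. In all 3 ratios every FOXA2H-KO library was above every FOXA2f/f library, though the gap for Cyp2e1 was narrow. All 3 share Oat as the numerator, whose groups already did not overlap on their own. They are thus not separate evidence about Oat, and no share over all gene pairs was computed. The ratio of Cyp1a2 to Cyp2e1 was 32.4%, 158.8% and 61.6% in FOXA2f/f and 31.8%, 29.9% and 16.3% in FOXA2H-KO, the latter all below the former by a small margin. Glul to Cyp2e1, Lgr5 to Axin2 and Tbx3 to Axin2 overlapped between groups. Lgr5 FPKM was 46.7% ± 7.73 of Axin2 FPKM in FOXA2f/f and 54.6% ± 6.25 in FOXA2H-KO (SD, n = 3 each), a steadier ratio than the level of either gene.

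**Figure D4:**
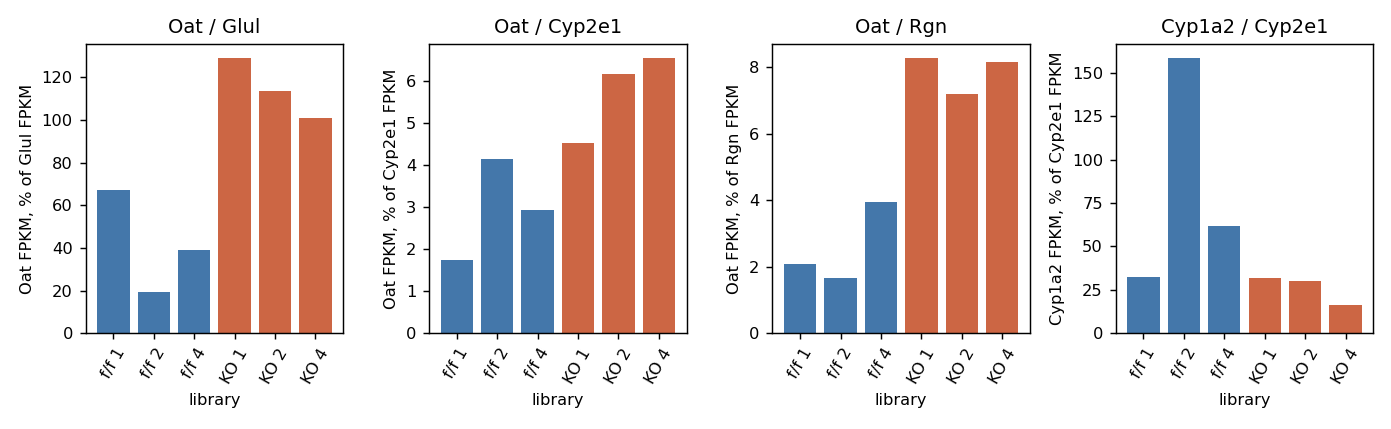
Ratio of 2 genes within each library, as the FPKM of the first in percent of the FPKM of the second, for FOXA2f/f (blue) and FOXA2H-KO (orange) libraries, on axes from 0. Oat relative to Glul is between 19.2% and 67.2% in FOXA2f/f and between 100.8% and 129.1% in FOXA2H-KO.

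Genes whose pattern over the 6 libraries was most like that of Oat were sought among 8294 genes with a mean of at least 10 CPM, by the root mean square difference of mean-centred log2 CPM. For Oat these were Gm4070 (difference 0.44), Serpina7 (0.45), the thyroxine-binding globulin gene, and Gvin1 (0.46), a large interferon-induced GTPase. Gm4070 and Gvin1 belong to one family of near-identical genes, so their counts are uncertain. Of the other listed genes, only Glul, Cyp2e1, Cyp1a2 and Rgn reached that mean and were ranked. Among these Cyp2e1 came closest to Oat, at rank 37, and Cyp1a2 was the least alike, at rank 7954. Glul was most like Ttc7b (0.13), 4732465J04Rik (0.14) and Crybg3 (0.16). Cyp2e1 was most like Cyp2c37 (0.17), another pericentral cytochrome, which had 41.5, 8.23 and 27.4 CPM in FOXA2f/f and 58.8, 42.2 and 44.3 CPM in FOXA2H-KO, and then like Nr1i3 (0.30), the nuclear receptor CAR. All of these rest on 6 libraries.

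Other genes of the same zone and pathway were compared from lists written by hand, and none of these genes passed the test in either direction by edgeR. Of 21 other pericentral genes tested, 0 were called, 12 had a log2 fold change above 0 (47.8% of all genes) and 9 below. The list median was 0.12, and 3 genes were at an unadjusted p under 0.05 (5.17% of all genes). DESeq2 called 1 of the 21, Aldh3a2, a fatty aldehyde dehydrogenase. Aldh3a2 was at 64.4, 60.5 and 81.8 CPM in FOXA2f/f and 181, 138 and 174.8 CPM in FOXA2H-KO, without overlap (log2 fold change 1.26, SE 0.18; adjusted p = 0.539 by edgeR). Lhpp, a phosphatase, was at 1.04 (SE 0.37; adjusted p = 0.837), and Cyp2c29 at 0.83 (SE 0.53) with overlapping groups. Cyp7a1, the rate-limiting enzyme of bile acid synthesis, was at −0.07 (SE 0.57), Gulo, of vitamin C synthesis, at 0.08 (SE 0.22), and Por, the electron donor of the cytochromes, at −0.02 (SE 0.25). The most negative value of the list, picked out after the values were seen, was that of Cyp2a5, at −1.68 (SE 0.69; adjusted p = 0.941 by edgeR), which had 34.5, 42.4 and 59.1 CPM in FOXA2f/f and 20.3, 19.9 and 1.94 CPM in FOXA2H-KO.

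In the Wnt pathway itself the list medians were small. Of 10 Wnt feedback and general target genes tested, 7 were above 0 (47.8% of all genes) and 3 below. Of these 10, 0 were called, and the median was 0.20. Among them were Notum (0.30, SE 0.30), which inactivates Wnt proteins, Rnf43 (0.04, SE 0.31) and Znrf3 (0.19, SE 0.23), which remove Wnt receptors from the membrane, Nkd1 (−0.09, SE 0.27) and Sp5 (0.21, SE 0.83), the last from at most 20 counts in a library. The smallest p-values of this list were those of Tnfrsf19 (−0.63, SE 0.33; adjusted p = 0.951 by edgeR) and the cyclin gene Ccnd1 (0.36, SE 0.27; adjusted p = 0.983). By an unadjusted p under 0.05 this list held 0 genes. Without FOXA2f/f replicate 2 its median turned to −0.07, and without FOXA2H-KO replicate 1 to −0.03.

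Ligands, R-spondins and the genes of their secretion had 9 of 11 tested genes above 0 (47.8% of all genes) and 2 below. In this list 0 were called (0 also at an unadjusted p under 0.05), and the median was 0.31. Wnt2, the ligand of central vein endothelium, had 1.72, 1.54 and 4.26 CPM in FOXA2f/f and 4.27, 4.21 and 4.26 CPM in FOXA2H-KO. The 3 FOXA2H-KO libraries and FOXA2f/f replicate 4 were thus near one level, with the other 2 FOXA2f/f libraries below (log2 fold change 0.74, SE 0.40; adjusted p = 0.952 by edgeR). Wnt9b was at 0.31 (SE 0.30), Rspo3 at −0.16 (SE 0.40) and Wnt5b at −0.67 (SE 0.35; adjusted p = 0.951). All 10 endothelial markers were detected in every library, and their sum was 511.2, 298.5 and 1009 CPM in FOXA2f/f and 505.5, 652.6 and 650.2 CPM in FOXA2H-KO. FOXA2f/f replicate 4 was thus highest both in these markers and, within its group, in Wnt2, and the part of endothelial RNA in the ligand values was not tested.

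Receptors (12 tested, 6 above 0 and 6 below, median 0.04) and the beta-catenin signal chain (16 tested, 8 and 8, median −0.003) lay close to the median of all genes. In both 0 were called, and 1 gene of each was at an unadjusted p under 0.05 (5.17% of all genes). Lgr4, the R-spondin receptor of hepatocytes throughout the lobule, had 67.7, 78.3 and 65.7 CPM in FOXA2f/f and 50.7, 55.7 and 55.1 CPM in FOXA2H-KO, without overlap (log2 fold change −0.39, SE 0.12; adjusted p = 0.794 by edgeR). Fzd4, a Wnt receptor, was at 0.29 (SE 0.14; adjusted p = 0.941). Ctnnb1, beta-catenin, was at −0.03 (SE 0.14) and Tcf7l2, its main nuclear partner in the liver, at −0.02 (SE 0.17). Bcl9l, a co-activator of beta-catenin, was at 0.50 (SE 0.20; adjusted p = 0.941), and Btrc, which marks beta-catenin for destruction, at −0.35 (SE 0.16; adjusted p = 0.941). Secreted antagonists were mostly too low to test, with 4 of 9 tested, 3 above 0 (47.8% of all genes) and 1 below. In this list 0 were called (0 at an unadjusted p under 0.05), and the median was 0.26. Of the 4 tested, Frzb was at −0.25 (SE 0.33) and Dkk3 at 0.33 (SE 0.45).

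**Figure D5:**
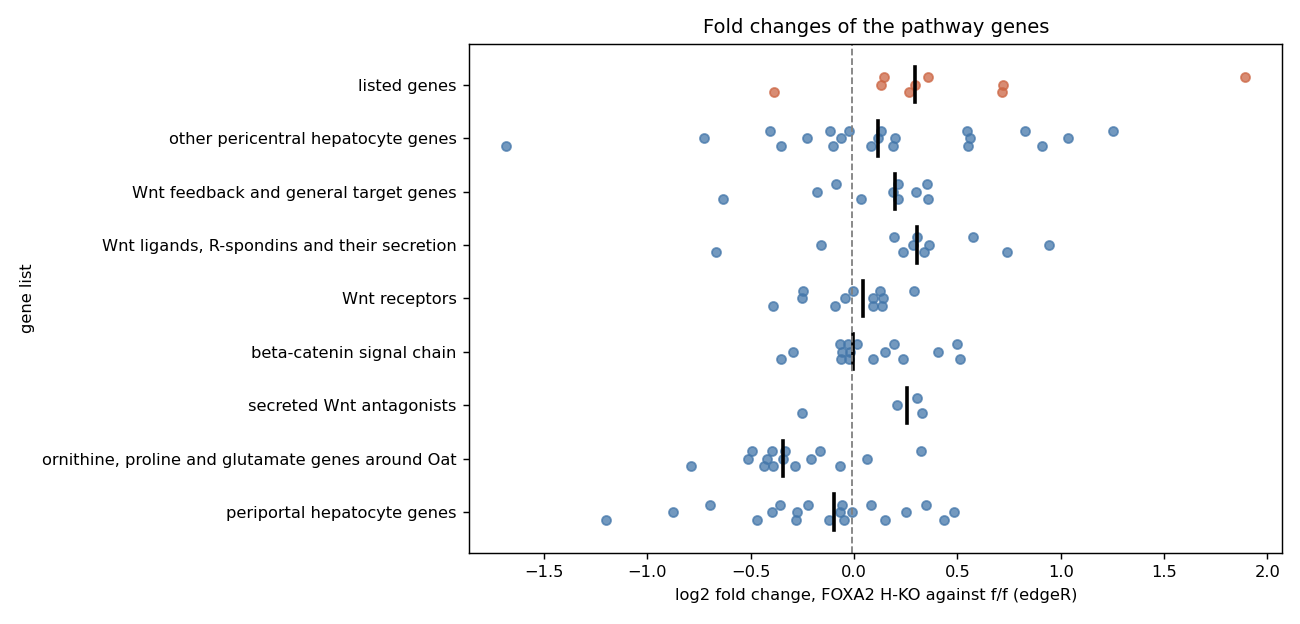
Log2 fold change (edgeR, FOXA2H-KO against FOXA2f/f) of every tested gene in each list; each point is a gene, offset vertically for legibility, thick bars are list medians and the dashed line is the median of all 14417 genes (−0.01). Oat is the point at 1.89 in the top row, and the ornithine, proline and glutamate list, which leaves Oat out, has a median of −0.34.

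The enzymes and transporters that share metabolites with Oat lay mostly on the other side of 0. Of 15 such genes tested, 2 were above 0 (47.8% of all genes) and 13 below, with a median of −0.34. Of the 15, 0 were called and 2 were at an unadjusted p under 0.05 (5.17% of all genes). Aldh4a1, which converts the product of OAT to glutamate, had 140.9, 161 and 127 CPM in FOXA2f/f and 98.8, 112.5 and 93.6 CPM in FOXA2H-KO, without overlap (log2 fold change −0.49, SE 0.15; adjusted p = 0.762 by edgeR). Aldh18a1, which makes that intermediate from glutamate, was at −0.21 (SE 0.28). Slc25a15, the mitochondrial ornithine carrier, was at −0.17 (SE 0.18), Arg1, the arginase that yields ornithine, at −0.07 (SE 0.26), Glud1, glutamate dehydrogenase, at −0.29 (SE 0.19) and Gls2, liver glutaminase, at −0.40 (SE 0.23), all with overlapping groups. Gls2 and Arg1 are themselves periportal, and both also stand in the periportal list.

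Of the 20 periportal genes, 6 were above 0 (47.8% of all genes) and 14 below, with a median of −0.10. In this list 0 were called and 3 were at an unadjusted p under 0.05 (5.17% of all genes). Cps1, the first enzyme of the urea cycle, was at −0.12 (SE 0.29) and Ass1, argininosuccinate synthase, at −0.36 (SE 0.25). Fbp1, of gluconeogenesis, had 594.4, 896.1 and 488 CPM in FOXA2f/f and 291.9, 448.4 and 337.8 CPM in FOXA2H-KO, without overlap (log2 fold change −0.88, SE 0.27; adjusted p = 0.791 by edgeR). Aldh1b1, a mitochondrial aldehyde dehydrogenase, was at −0.70 (SE 0.22; adjusted p = 0.794). The median of the periportal list changed sign with the scaling, to 0.04 with library size alone, under which the median of all genes moved from −0.01 to 0.10; the median of the ornithine, proline and glutamate list was −0.21 there.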

How the data were processed

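RNA of primary hepatocytes was made into 6 paired-end poly-A libraries. Per the submitters' processing notes, CASAVA 1.8, TopHat2 2.1.0, HTSeq and edgeR were used with genome build mm10; the annotation and the counting settings are not given in the sources used here. The authors deposited whole-number counts per Ensembl gene, not normalized, and FPKM values, which follow from the counts, the total count and 1 length per gene. A gene symbol was matched to 34267 of 34745 genes, and 478 others kept their identifiers.

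The counts went into edgeR 4.0.16, run in R 4.3.3 (TMM factors from 0.870 to 1.12, filterByExpr, quasi-likelihood test with no replicate block), with Benjamini-Hochberg adjustment across the 14417 genes tested. A gene was called at an adjusted p under 0.05 and a fold change of at least 2, the thresholds of the study. At these thresholds the study reports far more differentially expressed genes than were called here, and the cause of that difference was not tested. The common biological coefficient of variation was 25.3%. CPM values are counts scaled to the TMM-adjusted total. P-values measure the spread between these samples, which may be technical. Replicates differed well beyond counting noise (chi-square per degree of freedom from 38.8 to 134). Positions, overlaps and shared transcript windows came from GENCODE M21 on GRCm38, and start regions from RefSeq (GRCm38.p6).

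The 10 genes, the gene lists and the rule for named genes were chosen with earlier results of these data known. Named genes are Foxa2, the 10 genes, a fixed set of pathway genes, any called gene of a list, the 2 genes of each list with the smallest p (mean CPM of 1 or more), and the 3 genes most alike to Oat, Glul and Cyp2e1. Some genes that this rule gives are left out of the text. Alternatives were library size alone, no low-count filter, at least 10 counts in every library, DESeq2 1.42.0, upper quartile scaling, limma 3.58.1 on log2(FPKM + 1) of genes whose mean FPKM reached 1, other pseudocounts, the replicate number as a block, unadjusted p-values, and leaving out each library. A deposited table of the whole series was not used here.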

Additional observations from a re-analysis of the deposited data

How the results depend on the processing

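Calls over all genes depended on the setting more than the values of the 10 genes did, and the cause was not tested. Beside the 1 gene called, Foxa2, library size alone gave 0 genes, limma on log2(FPKM + 1) gave 0, no filter on low counts gave 2 (1 higher and 1 lower), DESeq2 gave 75 (27 higher and 48 lower), and an unadjusted p with a fold change of at least 2 gave 254 (120 higher and 134 lower). Leaving out 1 library gave between 0 and 6 genes, the 6 without FOXA2f/f replicate 2. Of the 10 genes, DESeq2 called 1 and the unadjusted p 1, Oat in both cases, and 0 were called in every other setting tried. Of the other pathway genes DESeq2 called 1, Aldh3a2, and an unadjusted p with the same fold, a setting added after seeing the data, gave 4 (Aldh3a2 and Lhpp higher, Cyp2a5 and G6pc lower). Foxa2 itself had an adjusted p of 0.124 with library size alone, 0.0958 with limma, 0.0536 with the replicate block and 4.05e-29 with DESeq2. Its log2 fold changes were −3.74 (library size alone), −3.88 (block) and −3.86 (DESeq2), but −1.95 with limma on log2(FPKM + 1).

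With the replicate number as a block (replicate block), 0 genes were called in all and 0 of the 10. Libraries of the same number did not deviate together from their group means (r = −0.10, 0.07 and −0.25 for replicates 1, 2 and 4). Only FOXA2H-KO replicate 2 correlated best with the library of its own number. The highest r was 0.29, between FOXA2f/f replicate 4 and FOXA2H-KO replicate 1. With 3 libraries per group, these values cannot show whether libraries of the same number share a batch.

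No scaling or unit, nor dropping the low-count filter, changed the sign of any of the 9 fold changes. Leaving out a library did so for Axin2 and Tbx3. The filter of at least 10 counts in every library was not compared for these single fold changes. Slc1a2 fell to 0.06 as a difference of log2(FPKM + 1), where its level is small beside the pseudocount. Library size alone moved the beta-catenin chain median from −0.003 to 0.12, about the shift of all genes. The antagonist median, over 4 genes, was −0.20 without FOXA2H-KO replicate 1, and the ligand median 0.61 without FOXA2f/f replicate 4. Counts were lowest for Slc1a2, Sp5 and Rhbg, and for Rhbg depth and uncounted shared exons cannot be told apart.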

Other observations

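Among markers of other cells in the preparations, those of cholangiocytes, the cells lining bile ducts, had the largest ratio of group means among the 6 marker lists (log2 ratio 1.00). Their summed level was 367.6, 174 and 231 CPM in FOXA2f/f and 708, 252.1 and 587.9 CPM in FOXA2H-KO, overlapping through FOXA2H-KO replicate 2. All 6 had a log2 fold change above 0 (47.8% of all genes), with a median of 0.82, or 0.34 without FOXA2H-KO replicate 1. By edgeR 0 were called, and 2 were at an unadjusted p under 0.05 (5.17% of all genes). Spp1, osteopontin, which made up most of the sum, was at 1.02 (SE 0.42; adjusted p = 0.941 by edgeR) and Krt7, a duct keratin, at 1.02 (SE 0.43; adjusted p = 0.941). In FOXA2H-KO, Oat was highest in replicate 2, where the marker sum was lowest. In FOXA2f/f, both Oat and the marker sum were lowest in replicate 2. The part of cholangiocyte RNA in the Oat values was not tested.

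The other marker sums overlapped between groups, with log2 ratios of the means of −0.01 for endothelial cells, 0.15 for macrophages, 0.31 for stellate cells and fibroblasts, 0.30 for lymphocytes and −0.13 for hepatocytes. Their genes with the smallest p were Kdr (−0.22) and Lyve1 (0.61) of endothelium, Cd68 (0.58) and Vsig4 (0.34) of macrophages, Col1a2 (0.38) and Col3a1 (0.39) of fibroblasts, Ptprc (0.29) of leukocytes, and Trf (−0.39) and Fgb (−0.42) of hepatocytes, 0 of them called by edgeR or at an unadjusted p under 0.05. Of the lymphocyte markers, Cd3e and Cd3g were at 0 in at least 1 library.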
